A study of Mus musculus with 6 samples.

Results

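The genes examined here are 7 brakes on the cell cycle, chosen by name for their role and not for their values: the CDK inhibitor genes Cdkn1b, Cdkn1c, Cdkn2c and Cdkn2d and the pocket protein genes Rb1, Rbl1 and Rbl2. They are 7 of the 13024 genes in the deposited count table, and all 7 passed the filter on low counts that left 12879 genes for testing. The study asked how loss of the transcription factor Gata3 affects differentiation of the mouse lens, and cell cycle exit is among the processes it followed. Messenger RNA of embryonic lenses at E14.5 was sequenced in 6 pools, 3 labelled control and 3 labelled CKO (conditional knockout), and each pool held 10 lenses from 5 embryos of a mixed C57BL/6 and FVB background. CKO embryos were Gata3 f/f; Pax6-Cre/+, with exon 4 of Gata3 removed by Cre in the head ectoderm that gives rise to lens and cornea. The line begins to express Cre at E9.5 and also does so in scattered cells of the retinal neuroectoderm. Control embryos are labelled wild type, whereas the study's text gives them as Gata3 f/wt without Cre in one place and as Gata3 f/f in another. No control embryo of the sequenced pools is described as carrying Cre, so the presence of Cre and the loss of Gata3 cannot be told apart in these data.

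Cells of the anterior lens epithelium divide, move to the lens equator and leave the cell cycle there as they elongate into lens fibre cells. Exit requires that cyclin-dependent kinases (CDKs) be held off the pocket proteins, because a pocket protein that is not phosphorylated binds E2F transcription factors and silences the genes of DNA replication. The Cip/Kip inhibitors p27 (Cdkn1b) and p57 (Cdkn1c) bind cyclin-CDK complexes, the INK4 inhibitors p18 (Cdkn2c) and p19 (Cdkn2d) bind the CDKs of cyclin D, and pRb (Rb1) is the pocket protein known to be required in fibre cells. In the lens, p27 and p57 are known to accumulate where fibre differentiation begins.

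Short oligonucleotides show which part of the Cdkn1b and Cdkn1c messages the study's own quantitative PCR reads, whereas the counts below sum fragments over all exons of a gene. They are printed 5′ to 3′ with the bases that pair with coding sequence in capitals. The Cdkn1b pair lies on chr6 (mm10, plus strand), with the forward primer across the junction of exons 2 and 3 of 3 (134922067 to 134924249 with the intron) and the reverse primer in the non-coding part of exon 3 (134924321 to 134924342). The Cdkn1c pair lies on chr7 (minus strand), with the forward primer in coding exon 3 of 4 (143459162 to 143459180) and the reverse primer in the non-coding exon 4 (143458984 to 143459003).
Cdkn1b forward: AGACGtaaacagctccgaattaag
Cdkn1b reverse: ttcaatggagtcagcgatatgt
Cdkn1c forward: CTCTCCAAACGTGGCTCCT
Cdkn1c reverse: gatgcccagcaagttctctc

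The bases just before the start sites of Rbl1 and Cdkn1b are printed because Rbl1 varied among pools together with genes known as E2F targets, and because the study placed a chromatin immunoprecipitation primer at Cdkn1b to look for factors bound there. Both come from RefSeq for GRCm38.p6, each on the strand of its gene, 250 bases that end at the base before the annotated start. In Rbl1 (chr2:157204535-157204784, minus strand) the capitals mark an E2F motif whose first base is at position -18 from the start site. In Cdkn1b (chr6:134920151-134920400, plus strand) they mark the site of that primer, with its first base at position -200.
Rbl1 promoter: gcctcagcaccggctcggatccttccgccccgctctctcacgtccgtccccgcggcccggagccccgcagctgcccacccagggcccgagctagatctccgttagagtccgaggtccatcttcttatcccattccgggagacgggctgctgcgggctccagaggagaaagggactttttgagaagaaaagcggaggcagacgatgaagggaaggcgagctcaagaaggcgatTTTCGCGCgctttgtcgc
Cdkn1b promoter: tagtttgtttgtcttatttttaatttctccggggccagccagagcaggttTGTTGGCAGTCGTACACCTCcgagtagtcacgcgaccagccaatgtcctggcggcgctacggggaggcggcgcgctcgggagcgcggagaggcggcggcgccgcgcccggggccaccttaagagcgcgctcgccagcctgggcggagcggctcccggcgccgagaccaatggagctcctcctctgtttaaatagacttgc

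Windows of 300 bases, 250 before and 50 after the start, were searched on both strands for E2F, GATA and Sp1 motifs, and they cover 5 of the 7 genes (Rbl1, Rbl2, Cdkn1b, Cdkn2c with a pair of windows, and Cdkn2d). An E2F motif (TTTCCCGC, TTTGGCGC, TTTCGCGC or TTTGCCGC) was found in the window of Rbl1 and in none of the others, against 2.26% of all 32851 windows. None of these windows held a GATA motif (AGATAA with its variant AGATAG, and the forms TGATAA as well as TGATAG), which 29.8% of all windows held. The Sp1 motif GGGCGG was found in a window of each of the 5 genes, with 5 matches in Cdkn2d and 4 in one window of Cdkn2c, and in 35.7% of all windows. These matches describe letters and not bound sites. Bases farther upstream, where the study also looked for bound factors, were not searched, and Cdkn1c had no window.

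Library totals lay between 15157230 and 18811104 fragments. Levels are CPM, the counts of a gene per 1000000 counts of its library after TMM scaling in edgeR. A log2 fold change is that of CKO against control from edgeR's quasi-likelihood fit to all tested genes, with a 95% interval, and an adjusted p is adjusted by the Benjamini-Hochberg method over these genes and called at 0.05. The pools are separate sets of embryos. With 3 pools against 3, the exact two-sided permutation test cannot give a p below 0.1. The targeted gene Gata3 stood at 12.8, 27.2 and 8.71 CPM in control pools 1, 2 and 3 and at 59.0, 54.1 and 46.5 CPM in CKO pools 1, 2 and 3. Gata3 was thus higher in each library labelled CKO (log2 fold change 1.72, edgeR adjusted p = 0.650). A count over all exons does not test the removal of exon 4, and reads of single exons were not analysed here. The study reports that its RNA sequencing showed excision of this exon in the mutant lenses. It also reports strongly lower Gata3 by quantitative PCR of embryonic lens RNA, with primers spanning this exon and the next. Dnase2b, which encodes the nuclease that degrades DNA in fibre cells, separated the groups in the direction opposite to the Gata3 counts. It stood at 12.9, 22.6 and 7.54 CPM in control pools 1, 2 and 3. In CKO pools 1, 2 and 3 it stood at 0.973, 0.305 and 0.468 CPM (log2 fold change -4.64, edgeR adjusted p = 0.322). All 11 lens fibre markers tested had lower means in CKO, where 50.6% of all genes were higher. Without control pool 2, 9 of the 11 were lower and 2 higher, and their median log2 fold change moved from -1.15 to -0.61. Directions below are those of the libraries as labelled.

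None of the 7 genes passed the test between the groups. All had an edgeR adjusted p of 0.9998, none had an unadjusted p under 0.05, and in all 7 the CKO pools overlapped the control pools. Over all 12879 genes tested, 0.0% passed the adjusted threshold, 3.55% had an unadjusted p under 0.05 and 8.36% had groups that did not overlap. The mean was higher in CKO for 5 of the 7 genes and lower for 2, where 50.6% of all genes were higher. None of the 7 had an unadjusted p under 0.05 without control pool 2 either (6.27% of all genes had one), or without control pool 1 and CKO pool 2 together (1.35%), pools that stood apart in markers given below. Cdkn1c did have one without control pool 3, in DESeq2, with marker covariates and with a replicate block, as given below. Counts of the 7 genes ran from 212 to 13928 per library. In bulk lens RNA, fewer cells of a type and less RNA per cell cannot be told apart.

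**Figure D1:**
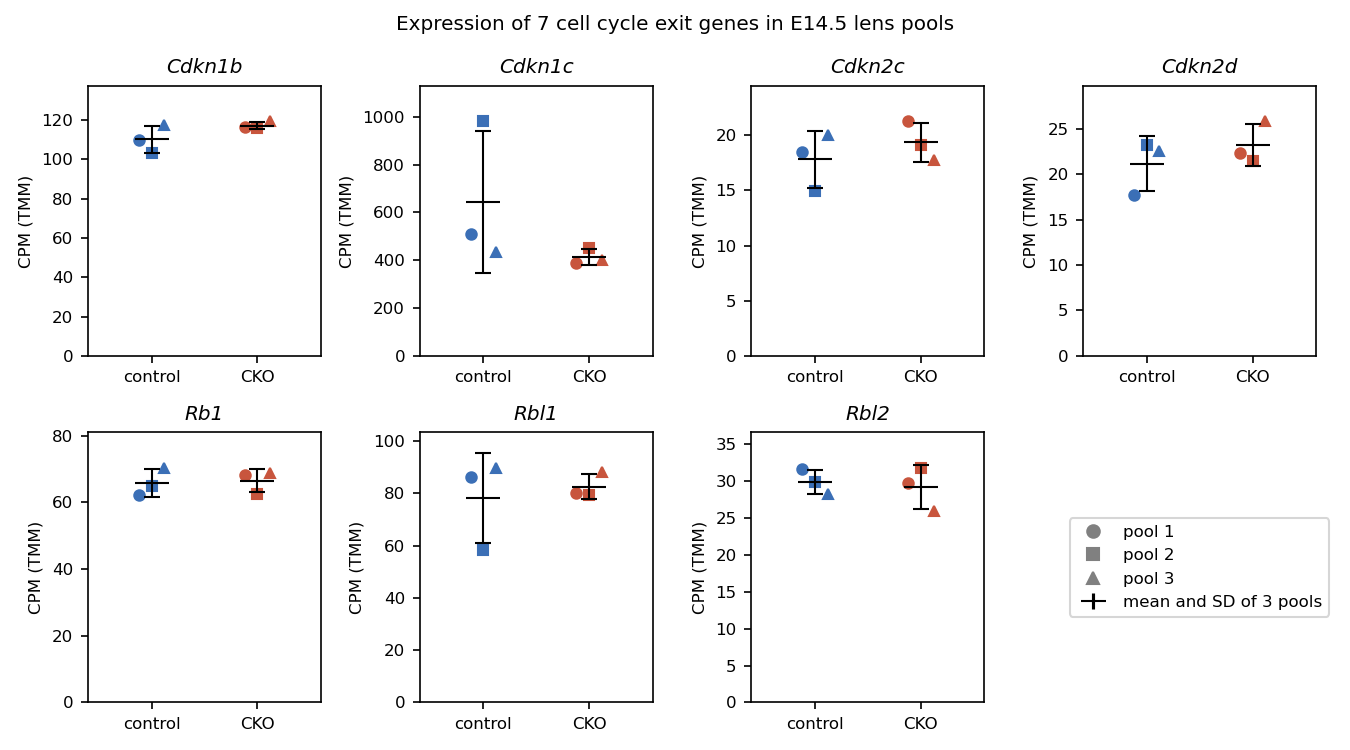
CPM (linear axis from 0) of each of the 7 genes in every pool, control in blue and CKO in red, with marker shape giving the pool number and bars giving mean and SD of 3 pools. Groups overlap in every panel, and the control pool at 981 CPM of Cdkn1c and at 58.5 CPM of Rbl1 is the same pool, control 2.

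Cdkn1c (chr7:143458339-143461050, minus strand) encodes p57, an imprinted Cip/Kip inhibitor expressed from the maternal allele. It stood at 511, 981 and 434 CPM in control pools 1, 2 and 3 and at 387, 450 and 401 CPM in CKO pools 1, 2 and 3. CKO pool 2 exceeded control pool 3, so the groups overlapped, and control pool 2 stood at 2.08 times the mean of the other controls. The means were 642 ± 296 CPM in control and 413 ± 33.3 CPM in CKO (SD, n = 3). The coefficient of variation was 46.1% among controls and 8.06% among CKO pools.

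The log2 fold change of Cdkn1c was -0.64 with a standard error of 0.30 and a 95% interval of -1.36 to 0.09 (edgeR unadjusted p = 0.0755, adjusted p = 0.9998, exact permutation p = 0.2). In linear terms the interval runs from 0.389 to 1.06 of the control level. Without control pool 2 the log2 fold change was -0.18 with an interval of -0.44 to 0.07, and without control pool 3 it was -0.85 (edgeR unadjusted p = 0.0204, adjusted p = 0.485) in a fit where 9.59% of genes had an unadjusted p under 0.05. Its unadjusted p also lay under 0.05 by DESeq2 (0.0288, adjusted p = 0.957), where 3.96% of genes had an unadjusted p under 0.05 and 0.655% passed the adjusted threshold. In an edgeR fit with retina and mesenchyme marker means added as covariates, its log2 fold change was -0.32 with a 95% interval of -0.50 to -0.14 (unadjusted p = 0.00183, adjusted p = 0.0510). In that fit 11.5% of genes had an unadjusted p under 0.05 and 3.56% passed the adjusted threshold. The fit places both covariates and the group on only 6 libraries. The retina covariate itself correlated with Cdkn1c at -0.897 over these libraries (Pearson, n = 6). Over all alternatives in edgeR, DESeq2 and limma, the adjusted p of Cdkn1c ran from 0.0510 to 0.999995.

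Cdkn1b (chr6:134920401-134925513, plus strand) encodes p27, the other Cip/Kip inhibitor of the set. It stood at 109.9, 103 and 117 CPM in control pools 1, 2 and 3 and at 116, 116 and 119 CPM in CKO pools 1, 2 and 3. All 3 CKO pools lay above control pools 1 and 2, and control pool 3 lay among them. The means were 110.1 ± 6.98 and 117 ± 1.96 CPM (SD, n = 3). Its log2 fold change of 0.09 had a standard error of 0.07 and a 95% interval of -0.08 to 0.26 (edgeR unadjusted p = 0.256, exact permutation p = 0.3), that is, 0.945 to 1.20 of the control level. This was the narrowest interval of the 7, and it holds for whole lenses and not for any one zone of the lens.

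Among the INK4 inhibitors, Cdkn2c (p18, chr4:109660876-109667189, minus strand) stood at 18.4, 14.9 and 20.1 CPM in control pools 1, 2 and 3 and at 21.3, 19.1 and 17.7 CPM in CKO pools 1, 2 and 3. The CKO pools overlapped control pools 1 and 3, and control pool 2 lay below all others. Its log2 fold change was 0.12 with a 95% interval of -0.23 to 0.46 (edgeR unadjusted p = 0.442). Cdkn2d (p19, chr9:21288410-21291407, minus strand) stood at 17.7, 23.2 and 22.5 CPM in control and at 22.3, 21.5 and 25.8 CPM in CKO. Control pool 1 lay below all others in this gene, CKO pool 3 above them. Its log2 fold change was 0.14 with a 95% interval of -0.20 to 0.47 (edgeR unadjusted p = 0.370). These were the lowest counts of the set, 212 to 375 for Cdkn2c and 279 to 496 for Cdkn2d.

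Rb1 (chr14:73183673-73325822, minus strand) encodes pRb, the founding pocket protein. It stood at 62.1, 65.0 and 70.4 CPM in control pools 1, 2 and 3 and at 68.2, 62.5 and 68.8 CPM in CKO pools 1, 2 and 3. The control pools enclosed all CKO pools. Its log2 fold change of 0.01 had a 95% interval of -0.18 to 0.21 (edgeR unadjusted p = 0.866), that is, 0.881 to 1.16 of the control level.

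Rbl1 (chr2:157145893-157204534, minus strand) encodes p107, the pocket protein most abundant in dividing cells and itself known as an E2F target. It stood at 86.1, 58.5 and 89.8 CPM in control pools 1, 2 and 3 and at 80.1, 79.5 and 88.0 CPM in CKO pools 1, 2 and 3. Control pool 2 was the lowest, with the mean of the other controls at 1.50 times its level, and the CKO pools lay between it and control pool 3. The log2 fold change was 0.08 with a 95% interval of -0.31 to 0.47 (edgeR unadjusted p = 0.648). Without control pool 2 it was -0.08 with an interval of -0.25 to 0.09, so its sign rested on that pool.

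Rbl2 (chr8:91070057-91123844, plus strand) encodes p130, the pocket protein most abundant in resting cells. It stood at 31.6, 29.9 and 28.3 CPM in control pools 1, 2 and 3 and at 29.8, 31.8 and 26.0 CPM in CKO pools 1, 2 and 3. The CKO range enclosed the control range. Its log2 fold change of -0.03 had a 95% interval of -0.29 to 0.22 (edgeR unadjusted p = 0.755).

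**Figure D2:**
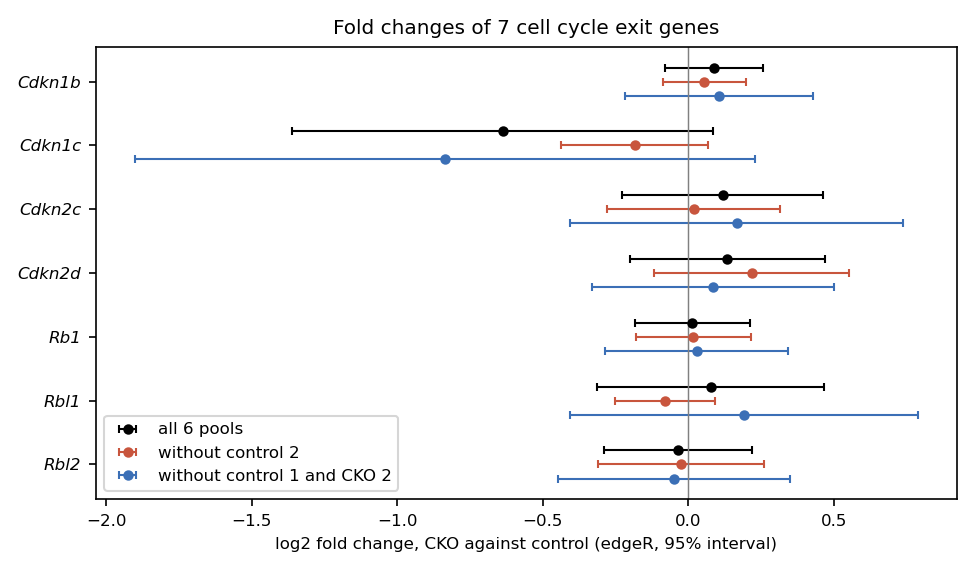
Log2 fold change of CKO against control (edgeR, points) with 95% intervals (bars) for the 7 genes, from all 6 pools, without control pool 2, and without control pool 1 and CKO pool 2. Every interval spans 0, and Cdkn1c moves from -0.64 to -0.18 when control pool 2 is left out.

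For 3 of the genes, exons of an annotated gene on the opposite strand overlap their own exons, and whether the counting used strand is not given in the sources used here. Rbl2 shares 693 exon bases with Aktip and 892 with Gm45464, Rb1 shares 488 with Rcbtb2 and 408 with Lpar6, and Cdkn1c shares 625 with the antisense gene Gm44732. The study describes its libraries as strand-specific. These overlaps are between all annotated GENCODE exons, whereas fragments were counted over RefSeq genes. The shared bases therefore do not measure how far the counts are affected, which was not tested. Cdkn1b, Cdkn2c and Cdkn2d had no such overlap, and no exon base of Rbl1 was shared.

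To compare levels between genes, CPM were divided by the length in kilobases of the exons of RefSeq-matched transcripts. Cdkn1c was the most abundant in control, at 331 ± 153 CPM per kilobase (SD, n = 3), followed by Cdkn1b at 46.0 ± 2.92. The next were Rbl1 at 16.1 ± 3.52, Cdkn2d at 14.8 ± 2.11 and Rb1 at 14.1 ± 0.903, whose control ranges overlapped and whose order was not resolved. Cdkn2c at 6.63 ± 0.973 and Rbl2 at 6.08 ± 0.335 CPM per kilobase were lowest and also overlapped. In CKO pools Cdkn1c stood at 213 ± 17.1 and Cdkn1b at 48.9 ± 0.819 CPM per kilobase, again above the other 5 genes. Message of p57 thus exceeded that of p27 in each of the 6 pools, and p107 message exceeded that of p130.

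Ratios between related genes within a pool do not depend on how libraries are scaled. The ratio of Cdkn1c to Cdkn1b counts was 4.65, 9.50 and 3.70 in control pools 1, 2 and 3 and 3.33, 3.89 and 3.36 in CKO pools 1, 2 and 3. CKO pool 2 lay above control pool 3, and the mean log2 ratio was lower in CKO by 0.64 (difference -0.64, exact permutation p = 0.2, adjusted over 3 ratios 0.6). The ratio of Cdkn2d to Cdkn2c was 0.959, 1.55 and 1.12 in control and 1.05, 1.13 and 1.45 in CKO (log2 difference 0.01, exact permutation p = 0.9). The ratio of Rbl2 to Rbl1 was 0.367, 0.511 and 0.316 in control and 0.373, 0.400 and 0.296 in CKO (log2 difference -0.14, exact permutation p = 0.7). Control pool 2 held the highest value of all 3 ratios, and without it the ratio of Cdkn1c to Cdkn1b ran from 3.33 to 4.65 across the 5 other pools.

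**Figure D3:**
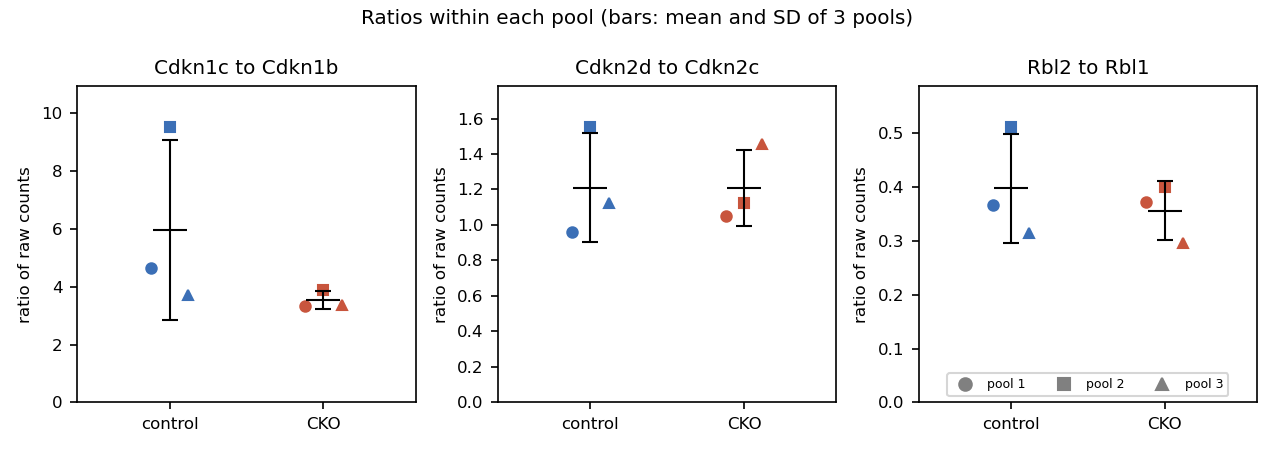
Ratios of raw counts (linear axes from 0) of Cdkn1c to Cdkn1b, Cdkn2d to Cdkn2c and Rbl2 to Rbl1 in each pool, with marker shape giving the pool number and bars giving mean and SD of 3 pools per group. Control pool 2 is the highest point in each panel, and the groups overlap in all of them.

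Control pool 2 stood apart from the other libraries in lens and other markers, and several of the 7 genes moved with it. The 11 lens fibre markers in the table summed to 22612 CPM there, against 7666 and 10836 in the other controls and 7152 to 10637 in CKO. The summed level of 11 retina markers was 840 CPM there and 1328 to 1984 elsewhere, that of 3 lens epithelium markers 703 against 327 to 494, and that of 6 blood markers 1267 against 279 to 531. Mesenchyme markers (10 genes) summed to 2228 CPM in control pool 1 and 4045 in CKO pool 2 but to 238 to 512 elsewhere, and pigment cell markers (6 genes) to 341 in each of these pools and 69.8 to 98.6 elsewhere. Vessel markers (6 genes) summed to 246 to 312 CPM in control and 219 to 276 in CKO, and macrophage markers (6 genes) to 73.7 to 140 and 65.2 to 89.0. No marker had under 10 counts in all libraries except for 3 of the blood list.

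In control pool 2, Cdkn1c was highest of all 6 pools and Cdkn1b, Cdkn2c and Rbl1 were lowest. Over the 6 pools, which share the scaling of the same libraries, log2 CPM of Cdkn1c and Cdkn1b had a Pearson correlation of -0.946 (Spearman -0.829, n = 6). The correlation was -0.356 without the 2 pools farthest from the median of Cdkn1c, control pools 1 and 2. The mean log2 CPM of the lens fibre markers correlated with Cdkn1c at 0.894 (Spearman 0.714, n = 6) and at 0.584 without control pool 2 and CKO pool 3. For the fibre markers and Cdkn1b these values were -0.932 (Spearman -0.771, n = 6) and -0.661. The retina marker mean tracked both genes about as closely, in the opposite directions. It correlated with Cdkn1b at 0.910 (Spearman 0.886, n = 6) and with Cdkn1c at -0.897 (Spearman -0.714, n = 6). Without control pools 2 and 3 these were 0.737 and -0.696. The mean of the E2F target genes correlated with Cdkn1b at 0.903 (Spearman 0.829, n = 6), and at 0.335 without control pool 2 and CKO pool 3. In control pool 2 the log2 CPM of Cdkn1c lay 0.98 above the mean of the 6 pools and that of Rbl1 0.44 below (deviation -0.44), while the fibre marker mean lay 1.59 above. The part of tissue content in these values was not tested beyond the fits with covariates and without pools.

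Rbl1 varied with genes of replication and division. Its log2 CPM correlated with the mean of 15 E2F target genes at 0.953 (Spearman 0.943, n = 6), and at 0.885 without control pool 2 and CKO pool 3. With the mean of 8 mitosis genes the correlation was 0.979 (Spearman 1.0, n = 6), and 0.824 without control pools 2 and 3. It was also 0.942 with the mean of the retina markers (Spearman 0.943, n = 6), and 0.556 without control pools 2 and 3, so lists of dividing cells and of retina moved together across these libraries. These correlations describe 6 libraries that share one scaling.

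**Figure D4:**
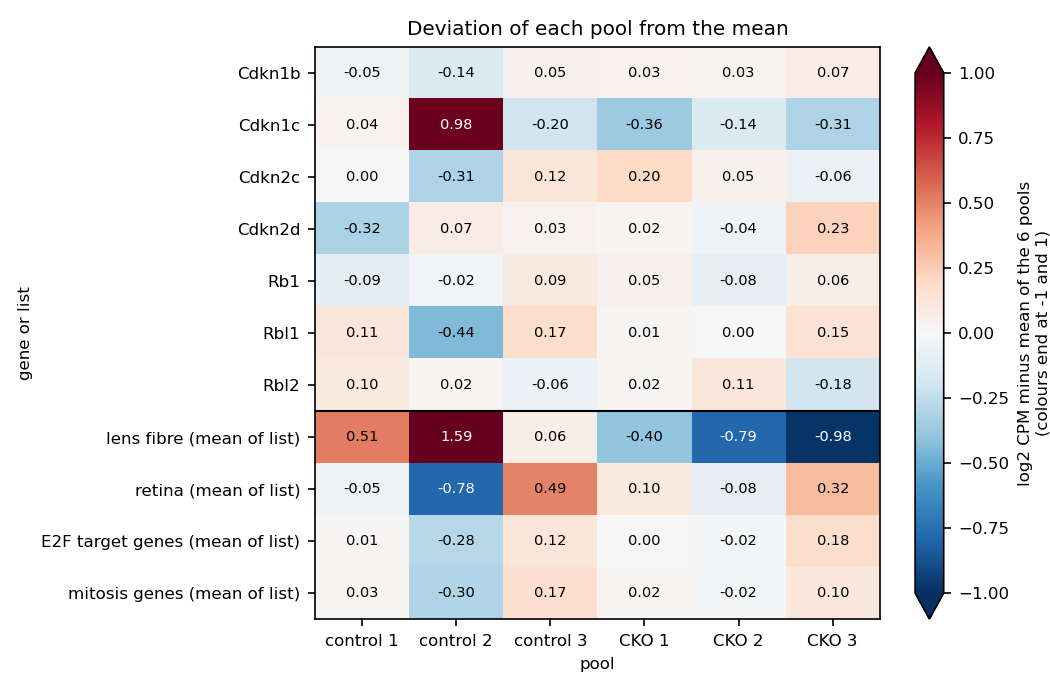
Log2 CPM of the 7 genes, and mean log2 CPM of 4 lists, in each pool as the difference from the mean of the 6 pools (colour and printed value; colours end at -1 and 1). Control pool 2 has the highest value of Cdkn1c (0.98) and of the fibre list (1.59) and the lowest of Rbl1 (-0.44) and of the retina list (-0.78).

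Likeness to Cdkn1b and Cdkn1c across the 6 pools was measured by Pearson correlation of log2 CPM among 10420 genes of at least 10 CPM on average. The genes most like Cdkn1b were Mzt1 (0.996), Pcsk1n (0.994), Faap20 (0.992), Fads2 (0.991) and Plk1 (0.991), and 152 genes exceeded 0.95. Like Cdkn1b, these 5 were each lowest in control pool 2. Those most like Cdkn1c were Letm1 (0.998), Ndufa9 (0.996), Pgm5 (0.995), Hmox1 (0.995) and Dnajc15 (0.995), and 210 genes exceeded 0.95. All 5 genes most like Cdkn1c were highest in control pool 2, for example Pgm5 at 134 CPM there and 40.1 to 56.0 CPM elsewhere. Both patterns follow from choosing genes by likeness across these same pools, so they are not separate results about the genes.

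Around the 7 genes, no gene of any pathway list passed the edgeR adjusted threshold. Of the other CDK inhibitors only Cdkn1a (p21, a Cip/Kip inhibitor induced by p53) was in the table. It stood at 9.50, 14.2 and 6.98 CPM in control pools 1, 2 and 3 and at 18.2, 19.5 and 18.7 CPM in CKO pools 1, 2 and 3. The groups did not overlap (log2 fold change 0.88, edgeR unadjusted p = 0.0103, adjusted p = 0.967), a pattern with CKO higher that 3.67% of all genes showed. 
Of 10 G1 and S phase cyclins and CDKs, 6 were higher and 4 lower in CKO. Their median was a log2 fold change of 0.07, against 0.0019 over all genes. It was 0.0096 without control pool 2, when 5 of 10 were higher, and 0.15 without control pool 3. The cyclin E genes Ccne1 and Ccne2, partners of CDK2 and targets of p27 and p57 inhibition, had groups that did not overlap. Ccne1 stood at 24.4, 19.7 and 17.6 CPM in control and 30.8, 24.7 and 26.2 in CKO (log2 fold change 0.40, edgeR unadjusted p = 0.0338, adjusted p = 0.9998). Ccne2 stood at 41.9, 31.5 and 37.9 CPM in control and 43.4, 48.1 and 48.3 in CKO (log2 fold change 0.33, edgeR unadjusted p = 0.0303, adjusted p = 0.9998). The lowest of the list was Ccnd2, encoding cyclin D2, at a log2 fold change of -0.06.

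Of 12 partners of the pocket proteins (E2F and DP factors and subunits of the complex that p107 and p130 form in resting cells), 9 were higher and 3 lower, from -0.06 for Lin54 to 0.21 for E2f2, with a median of 0.09 (0.05 to 0.13 with pools left out in turn) and none at an unadjusted p under 0.05. Of 15 E2F target genes, 14 were higher and 1 lower, the lowest being Tk1 at -0.03, and of 8 mitosis genes 7 were higher and 1 lower, from -0.09 for Mki67 to 0.16 for Plk1. None of these genes had an unadjusted p under 0.05. Their medians of 0.10 and 0.08 became -0.01 and -0.04 without control pool 2, when 5 of 15 and 2 of 8 were higher, so the direction of both lists rested on that pool. Of 9 genes for the turnover of p27 and p57 protein, 4 were higher and 5 lower, with a median of -0.0022 (-0.02 to 0.04 with pools left out in turn; 7 higher without control pool 2), from -0.22 for Rnf123, a ubiquitin ligase of p27, to 0.19 for Cks1b, the cofactor with which Skp2 marks p27 for destruction.

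**Figure D5:**
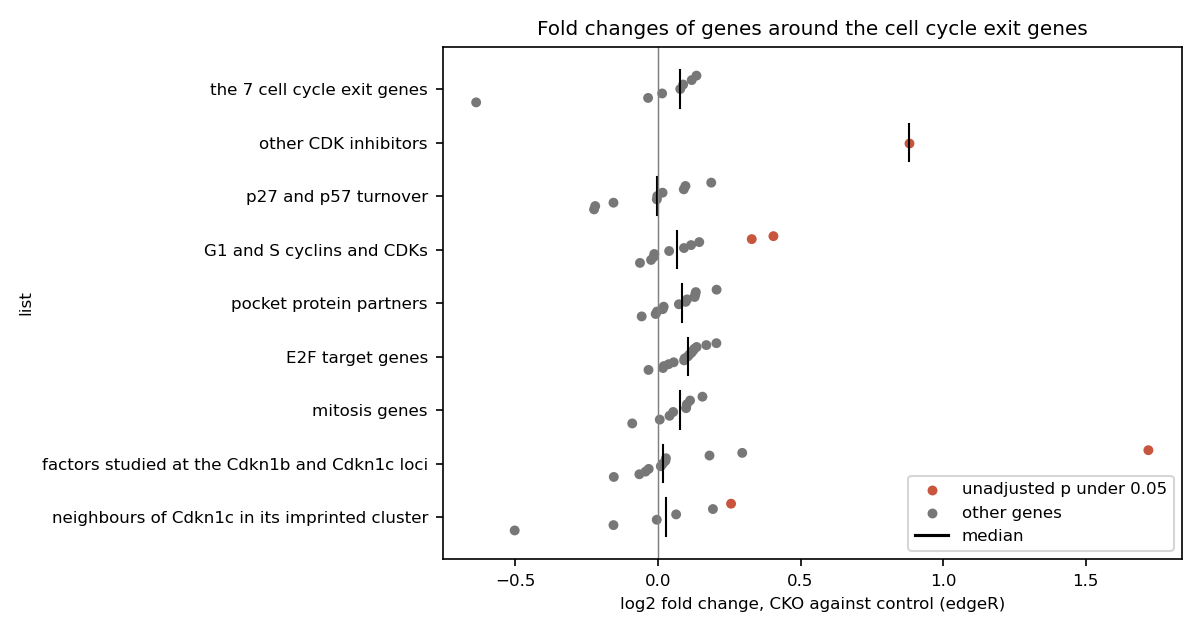
Log2 fold change (edgeR, CKO against control) of each tested gene by list, with red points for an unadjusted p under 0.05, grey points for the rest and a black bar for the list median. Most points lie near 0, and Cdkn1c at -0.64 is the lowest of the 7 cell cycle exit genes, while Cdkn1a (0.88) and Gata3 (1.72) lie farthest to the right.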

How the data were processed

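RNA-Seq counts of 6 lens pools were analysed. The authors aligned reads to mm10 with TopHat2 2.0.13, counted fragments per RefSeq gene with HTSeq 0.6.1 and deposited raw counts for genes passing an FPKM filter (Cuffdiff 2.2.1). HTSeq's strand and overlap options are not given in the sources used here. Samples were grouped by title, whose numbers name the pools (CKO titles run 1 to 3, their descriptions 2 to 4). Libraries held 15157230 to 18811104 counts.

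The filter kept genes with 10 counts or more in 3 or more libraries, and these were tested in edgeR 4.0.16 (R 4.3.3) with TMM normalization, a robust quasi-likelihood fit and Benjamini-Hochberg adjustment. Log2 CPM used a prior count of 1 and log2 ratios an offset of 0.5. Ratios and single genes were compared by exact two-sided permutation. Alternatives were DESeq2 1.42.0, limma 3.58.1 voom, RLE factors, crystallins left out of library sizes, other filters, a replicate block, an offset of 5, marker covariates and pools left out in turn. Leaving out control pool 1 and CKO pool 2 together was chosen after seeing the data. Scripts were tested on simulated data.

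Positions came from GENCODE M21 (GRCm38, the assembly of mm10). Named genes are the 7 genes, Gata3, the lowest and highest of each pathway list and those with an unadjusted p under 0.05, the 5 most correlated with Cdkn1b and with Cdkn1c, and genes with overlapping exons; of the marker lists, levels of single genes are given for Dnase2b alone, and 1 named gene is not reported here. Pgm5 was given levels after its values were seen. The genes and lists were chosen with earlier results of these data known.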

Additional observations from a re-analysis of the deposited data

How the results depend on the processing

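For 19 results, 264 values were recomputed under the alternatives. In 11 of them the sign of a log2 fold change among the 7 genes, or of a ratio difference, was reversed. Several list medians also crossed 0, among them those of the E2F target and mitosis genes without control pool 2. The number of genes past an adjusted p of 0.05 was 0 in edgeR, 85 with DESeq2 and 458 with retina and mesenchyme markers as covariates, and none of the 7 genes was among them. That last fit turned the log2 fold change of Rbl1 to -0.029. When pools were left out in turn, 0 to 1 genes were called (1 without control pool 3). The log2 fold changes then ran from 0.06 to 0.14 for Cdkn1b, -0.85 to -0.18 for Cdkn1c, 0.02 to 0.21 for Cdkn2c, 0.04 to 0.22 for Cdkn2d, -0.010 to 0.066 for Rb1, -0.081 to 0.19 for Rbl1 and -0.10 to 0.043 for Rbl2. The log2 ratio differences ran from -0.92 to -0.24 for Cdkn1c to Cdkn1b, -0.14 to 0.21 for Cdkn2d to Cdkn2c and -0.29 to 0.054 for Rbl2 to Rbl1. The cause of these shifts was not tested. Without control pool 1 and CKO pool 2, the pools rich in mesenchyme markers, Cdkn1c stood at -0.84 and Rbl1 at 0.19. With the pool number as a replicate block, 0 genes passed the adjusted threshold, 516 rather than 457 had an unadjusted p under 0.05, and Cdkn1c stood at -0.55 (edgeR unadjusted p = 0.0453). Deviations of pools with the same title number correlated at -0.487, 0.0899 and 0.442 over 12879 genes. Whether such pools share a litter or a batch is not given, and these values cannot decide it. Pools were not matched by the numbers in their descriptions. At counts as low as 212 per library, counting error adds to the spread between pools.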

Other observations

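Of 11 genes for factors that the study placed at or near the Cdkn1b and Cdkn1c loci or that are known to act there, 7 were higher and 4 lower in CKO (median log2 fold change 0.02, and -0.02 to 0.06 with pools left out in turn). Apart from Gata3, none had an unadjusted p under 0.05 in edgeR. Prox1, a homeodomain factor of fibre cells, was the lowest at -0.15. It stood at 230, 434 and 182 CPM in control pools 1, 2 and 3 and at 314, 241 and 206 CPM in CKO, again highest in control pool 2.

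Cdkn1c lies in an imprinted gene cluster, and 6 of 11 listed neighbours were tested. Of these, 3 were higher and 3 lower (median log2 fold change 0.03). Without control pool 2, 5 of the 6 were higher and the median was 0.16, and without control pool 3 it was -0.01. Cd81, which encodes a tetraspanin, stood at 123, 120 and 107 CPM in control pools 1, 2 and 3 and at 132, 151 and 135 CPM in CKO, with no overlap between groups (log2 fold change 0.26, edgeR unadjusted p = 0.0225, adjusted p = 0.9998). Cars, a cysteinyl-tRNA synthetase gene, was the lowest at -0.50, with 109, 176 and 97.9 CPM in control and 98.5, 86.8 and 84.9 CPM in CKO. As in Cdkn1c, control pool 2 held its highest value. Kcnq1ot1, the long non-coding RNA transcribed from the paternal allele of the cluster, had a log2 fold change of -0.0042, and it was picked out after its value was seen.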
